A study of Mus musculus with 18 samples.

Results

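Hippocampal neurospheres of *Kdm2b* conditional knockout (cKO) mice were compared with those of control mice by RNA-seq. Neurospheres are floating aggregates of neural progenitors, grown here from hippocampi of mice at postnatal day 0 on plates to which cells do not attach, with N2, B27, FGF2 and EGF, and sequenced after several generations in vitro. The comparison took every named gene whose 4 libraries averaged 0.5 FPKM or more, which gave 12226 of the 23397 named genes in the neurosphere table. FPKM is the number of sequenced fragments for each kilobase of a transcript, relative to all fragments mapped. The 2 control libraries come from mice labelled Kdm2bfl/+ or Kdm2bfl/fl, which the labels do not separate, and the 2 cKO libraries from mice labelled Kdm2bEmx1-delta-CxxC. Both groups thus carry floxed *Kdm2b*. The cKO mice also carry Cre under *Emx1*, which is active in progenitors of the dorsal telencephalon, and lack the exon that encodes the CxxC zinc finger. The series holds 18 libraries in all, among them 6 of whole hippocampi of the same genotypes and age, which were used for comparison. Strain, sex and the number of animals behind a library are not given in the labels, so the tests measure the spread between libraries, which may in part be technical.

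KDM2B is the subunit of the variant Polycomb complex PRC1.1 that reads DNA. Its CxxC zinc finger binds unmethylated CG dinucleotides, which cluster in CpG islands, and the complex then ubiquitinates histone H2A (H2AK119ub), a mark that PRC2 reads and follows with H3K27me3. Polycomb marks keep genes of other lineages and stages silent in progenitors. Hippocampal progenitors are radial glial cells, which give neurons first and then astrocytes and oligodendrocytes, and neurospheres keep dividing while FGF2 and EGF are present. Whole hippocampi mix progenitors with neurons and other cells, and the neurospheres were grown to read the effect of the deletion in progenitors.

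Promoter sequence is shown for 4 genes among the largest changes, since CG dinucleotides are what the deleted domain reads. Each run gives the 250 bases before the first start that RefSeq lists, 5′ to 3′ on the gene's strand, with every CG in capitals, on GRCm38.p6. The genes *Six3* (window chr17:85620584-85620833, plus strand, inside the annotated gene, which starts further upstream) and *Otx2* (chr14:48667645-48667894, minus strand, the first of 4 listed starts, inside the annotated gene) rose in cKO neurospheres. The genes *Gja1* (window chr10:56377050-56377299, plus strand) and *Pcp4* (chr16:96467356-96467605, plus strand) fell.
Six3: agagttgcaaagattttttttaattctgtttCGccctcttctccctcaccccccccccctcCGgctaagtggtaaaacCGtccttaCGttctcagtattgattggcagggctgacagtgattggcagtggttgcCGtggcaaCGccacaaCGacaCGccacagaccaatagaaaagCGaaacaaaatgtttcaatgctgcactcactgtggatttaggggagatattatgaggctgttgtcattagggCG
Otx2: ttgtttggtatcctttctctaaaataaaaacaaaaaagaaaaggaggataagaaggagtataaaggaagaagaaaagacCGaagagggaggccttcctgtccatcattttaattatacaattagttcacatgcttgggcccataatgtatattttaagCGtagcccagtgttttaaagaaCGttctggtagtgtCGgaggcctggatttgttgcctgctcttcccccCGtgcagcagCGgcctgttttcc
Gja1: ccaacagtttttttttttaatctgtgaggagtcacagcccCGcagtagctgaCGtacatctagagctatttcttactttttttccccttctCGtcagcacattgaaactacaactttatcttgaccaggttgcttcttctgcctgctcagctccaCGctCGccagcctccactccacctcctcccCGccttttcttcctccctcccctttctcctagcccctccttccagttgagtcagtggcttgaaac
Pcp4: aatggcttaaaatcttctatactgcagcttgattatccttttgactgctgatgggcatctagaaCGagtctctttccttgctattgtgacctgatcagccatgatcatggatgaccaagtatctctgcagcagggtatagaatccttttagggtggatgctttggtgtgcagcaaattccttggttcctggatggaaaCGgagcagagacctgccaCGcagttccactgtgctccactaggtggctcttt
The motif CG, which reads the same on both strands, occurs 10 times in the window of *Six3*, 6 times in that of *Otx2*, 6 times in that of *Gja1* and 3 times in that of *Pcp4*. Of the 27025 RefSeq genes with such a window, 38.2% hold at least as many as *Six3*, 50.5% at least as many as *Otx2* and *Gja1*, and 70.4% at least as many as *Pcp4*, and the median is 6. These include genes not tested here. The 9826 tested genes with a promoter had a median of 22 CG, with quartiles of 14 and 29. That count is over a longer window of 300 bases, 250 before the start and 50 after it. A comparison of CG content between the higher and the lower genes was void, because 79.0% of the higher and 79.6% of the lower genes had a window in the table, under the minimum of 80%.

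Before the results, 2 libraries stood apart. Control library 1 summed to 855276 FPKM against 452580 to 522964 in the others, with 29.3% of its FPKM in entries that name no gene and 15.9% in *Mir6236*. Without these the libraries summed to between 448615 and 505626 FPKM, and all values here are without them. In cKO library 1 there were 66 genes at 1 FPKM or more that were under 0.1 FPKM in the 3 others, against 10, 3 and 0 such genes in control 1, control 2 and cKO 2. Genes known from the epithelium of the colon were high in that library, such as *Car1* (62.8 FPKM there, at most 0.183 in the others), *Lypd8* (57.9 and at most 1.1) and *Zg16* (48.5 and at most 0.72). A list of 30 such genes, written after these values were seen, summed to 421 FPKM in cKO library 1 and to between 37.6 and 49.4 FPKM in the others, where most of it was 1 entry that names *Ech1* with *Lgals4*. Of its 25 tested members, 2 were called higher in cKO neurospheres (*Spink4* and *Clca1*, neither of them called without control 1 or without control 2), and without cKO library 1 only 4 members could be tested. Hemoglobin genes were listed at 0 in 3 libraries and at up to 1.74 FPKM in cKO library 1. *Xist*, the RNA that silences an X chromosome in females, was at 175, 173 and 140.0 FPKM in control 1, control 2 and cKO 2 and at 0.361 FPKM in cKO 1, the library with Y-linked transcripts. The part of these differences in the results below was not tested beyond leaving each library out. The methods of the study give a single nominal depth for all RNA-seq libraries, and the depth each library reached cannot be read from FPKM.

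The label was checked against defining markers. All 4 libraries held neural progenitor genes at high levels: *Sox2* was at 257 and 229 FPKM in controls and at 184 and 243 FPKM in cKO neurospheres, and *Nes*, *Vim* and *Fabp7* were at 89.4 FPKM or more in each. The value of *Fabp7*, which carries fatty acids in radial glia, is that of an entry shared with *Smpdl3a*. Glial and neuronal genes also passed the filter in large part. Of 30 astrocyte genes 29 passed, of 20 genes of oligodendrocyte precursors and committed oligodendrocytes 19, of 20 myelin genes 13 and of 30 neuronal genes 22. The astrocyte list summed to 10292 and 7095 FPKM in controls, against 6182 and 5718 FPKM for 30 genes of stem cells and radial glia. Most of the astrocyte sum was 1 entry, that of *Apoe* with *Tomm40*, at 6317 and 3954 FPKM. Without that entry the astrocyte sum was the smaller in both controls. The cultures thus held transcripts of glial and neuronal genes beside those of progenitors. Values over whole cultures cannot tell whether separate cells held them. Markers of further cell types were few. Of 15 microglial genes 2 passed the filter, of 14 endothelial genes 2, of 16 genes of meninges and mural cells 3 (*Foxc1*, *Acta2* and *Tagln*, the last in an entry shared with *Pcsk7*), of 15 genes of ciliated ependyma 3 and of 9 blood genes none, and none of those tested was called, with 1 of them, a meningeal gene, at an unadjusted p under 0.05 from limma. The summed level of the microglial list was between 22 and 26 FPKM, that of the endothelial list between 6.09 and 7.84 FPKM and that of the meningeal list between 15.0 and 19.3 FPKM. That of the ependymal list was between 21.9 and 24.1 FPKM, most of it an entry that names *Foxj1* with *Rnf157*, and that of the choroid plexus list was 55.2 and 60.1 FPKM in controls and 37.1 and 38 FPKM in cKO neurospheres, most of it *Enpp2*, which oligodendrocytes also express and which was lower in cKO neurospheres. No *Hox* gene of 39 passed the filter.

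A gene was called when limma gave an unadjusted p under 0.05 and the log2 fold change was beyond 0.4 either way, the thresholds of the study, and p values adjusted over all 12226 genes are given beside the values. Fold changes are differences of log2(FPKM + 1), on which genes with low values show less than their true change. Of the genes tested, 1392 were higher in cKO neurospheres, which is 11.4%, and 1619 were lower, which is 13.2%. With an adjusted p under 0.05 the counts were 1119 (9.15%) and 1249 (10.2%). Over all genes tested the log2 fold changes had a median of -0.011. The filter takes the mean of all 4 libraries, so a gene near 0 in either group was tested only where the other group held more. Counts in lists of mostly silent genes are therefore tilted toward calls. The groups did not overlap for 66.4% of all genes tested, and for each of the called genes. A log2 fold change over 2 was reached by 18 of the higher genes and one under -2 by 53 of the lower genes. Without control library 1, 1214 genes were higher and 1359 lower, and without cKO library 1, 1770 and 1619. Expression was measured over whole cultures, in which fewer cells of a type and less RNA per cell cannot be told apart.

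**Figure D1:**
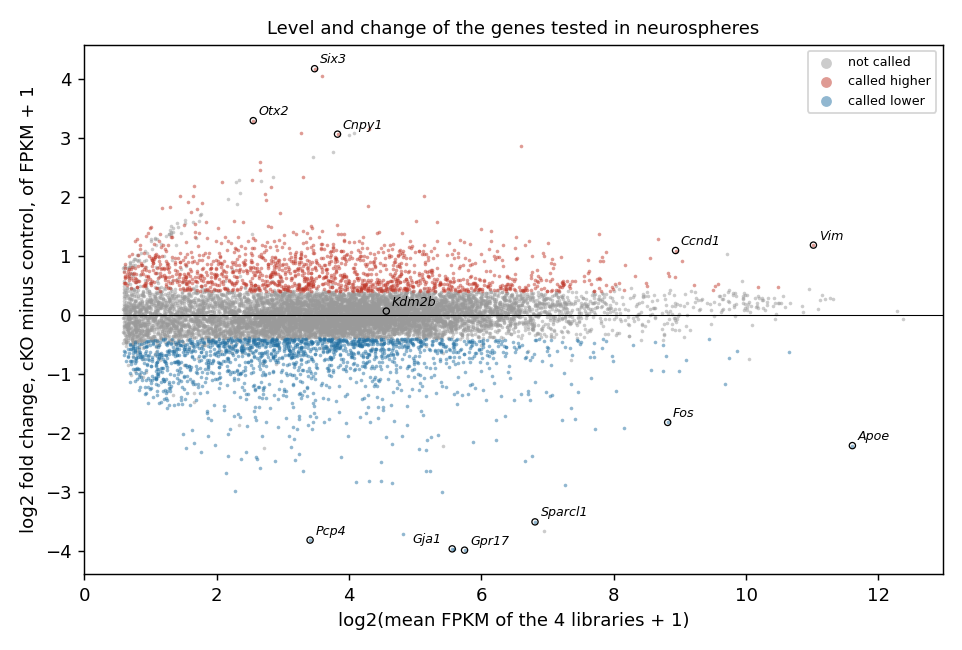
The log2 fold change of each of the 12226 genes tested (vertical axis, cKO minus control, of FPKM + 1) is plotted against its level (horizontal axis, log2 of the mean FPKM of the 4 libraries + 1), with the 1392 genes called higher in red, the 1619 called lower in blue and the others in grey. The largest rises, such as that of *Six3*, belong to genes of low level in controls, while large falls reach abundant genes such as *Apoe* and *Fos*.

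The targeted gene was not called. *Kdm2b* was at 22.2 and 21.9 FPKM in controls and at 22.5 and 23.7 FPKM in cKO neurospheres (log2 fold change 0.063 ± 0.0799 SE, adjusted p = 0.599), on chromosome 5 from 122870665 to 122989823 of GRCm38. The deletion removes 1 exon, and a value over the whole gene does not show it, so these values do not check the genotype. The study itself reports loss of this exon in cKO, seen by RNA-seq of hippocampal neurospheres.

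The largest rises were those of transcription factors of the anterior and ventral brain that control neurospheres held near 0. *Six3* was at 0.308 and 0.0175 FPKM in controls and at 16.7 and 23.5 FPKM in cKO neurospheres (log2 fold change 4.17 ± 0.207 SE, adjusted p = 0.00102). *Six3*, on chromosome 17 from 85613608 to 85629302, is a homeobox factor of the anterior forebrain and eye field. Its antisense neighbour *Six3os1*, which overlaps it on the other strand, rose from 0.771 and 0.0523 to 20.2 and 23 FPKM (log2 fold change 4.05), and since the strand of the libraries is not given in the sources used here, reads of the pair cannot be told apart. *Otx2* was at 0.083 and 0 FPKM in controls and at 6.54 and 12.8 FPKM in cKO neurospheres (log2 fold change 3.29 ± 0.289 SE, adjusted p = 0.00205). *Otx2*, a homeobox factor of forebrain and midbrain, was thus at or near 0 in both controls and clearly measured in both cKO libraries.

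Genes of the midbrain and the isthmus rose as well. *Cnpy1*, a regulator of FGF signaling at the isthmus, rose from 2.05 and 1.85 to 18.5 and 30.2 FPKM (log2 fold change 3.06 ± 0.221 SE, adjusted p = 0.00153). *En2*, a homeobox factor whose gene lies 28653 bases away on chromosome 5, rose from 2.17 and 2.22 to 11.7 and 19.5 FPKM (log2 fold change 2.33 ± 0.226 SE, adjusted p = 0.00247). *Gbx1*, another homeobox factor, rose from 0.0671 and 0.0852 to 2.98 and 3.75 FPKM (log2 fold change 2.01, adjusted p = 0.00205) in the entry that names it alone, while an entry that names it with *Agap3* was at 0.11 (adjusted p = 0.412), so its rise is uncertain. Of a list of 12 genes of midbrain and hindbrain patterning, written after these values were seen, 6 could be tested, with *Gbx1* by the shared entry, and 5 were called higher, *Otx2* of the anterior factors among them, while *Wnt1*, *En1*, *Pax2*, *Pax5*, *Pax8* and *Fgf17* were under the filter. Of the 5, *Gbx2* had an adjusted p of 0.065 and was not called without cKO library 2, at a log2 fold change of 0.89.

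Ventral telencephalic factors rose beside them. *Dlx2*, which specifies inhibitory interneurons, rose from 0.126 and 0.0468 to 5.75 and 2.63 FPKM (log2 fold change 2.19 ± 0.305 SE, adjusted p = 0.00688), and *Dlx1*, its neighbour 9427 bases away on chromosome 2, from 0.0868 and 0.0654 to 3.38 and 2.31 FPKM (log2 fold change 1.82 ± 0.20 SE, adjusted p = 0.00343). Both cKO libraries were above both controls, though cKO library 1 held more of either gene than cKO library 2. Of 20 genes of the ventral telencephalon, 11 could be tested, with a median of 0.68. Of these 7 were higher, *Six3* among them, and 1, the progenitor factor *Gsx1*, was lower (log2 fold change -0.59). Over all genes tested 11.4% were higher. In controls *Six3*, *Dlx2*, *Dlx1* and *Ebf1* averaged 0.163, 0.0865, 0.0761 and 0.37 FPKM. These called genes passed the filter only through the cKO libraries, so the filter tilts the count upward. *Dlx5*, *Dlx6*, *Nkx2-1*, *Lhx6* and *Lhx8*, which act later in this lineage, were under the filter. Of 20 genes of the anterior brain and eye field, 12 could be tested, 5 were higher, with *Six3*, *Six3os1* and *Otx2* among them, and 1 lower. *Six6*, *Rax*, *Hesx1* and *Vax1* were under the filter. *Six3os1*, *Otx2* and *Vax2*, at means of 0.412, 0.0415 and 0.431 FPKM in controls, also passed it only through the cKO libraries.

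Other large rises were those of secreted, membrane and RNA-binding proteins. *Igf2bp2*, an RNA-binding protein of growing progenitors, was at 0.207 and 1.53 and 11.4 and 8.06 FPKM (log2 fold change 2.6). *Emilin2*, a glycoprotein of the extracellular matrix, rose from 0.922 and 0.902 to 6.42 and 10.8 FPKM (log2 fold change 2.29). *Rtn4rl2*, a relative of the Nogo receptor, and *Shisa8*, a small membrane protein, reached log2 fold changes of 2.17 and 2.06.

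Among falling genes, those of oligodendrocyte precursors and astrocytes led. *Gpr17*, a receptor of precursors about to become oligodendrocytes, was at 92.7 and 107 FPKM in controls and at 5.55 and 5.1 FPKM in cKO neurospheres (log2 fold change -3.99 ± 0.102 SE, adjusted p = 0.000337). *Lims2*, whose gene spans that of *Gpr17* on the other strand, fell from 33.2 and 34 to 3.88 and 3.91 FPKM (log2 fold change -2.82), and reads of this pair cannot be told apart either. *Gja1*, on chromosome 10 from 56377330 to 56402513, encodes connexin 43, the main gap junction protein of astrocytes, and was at 96.3 and 78.5 FPKM in controls and 6.07 and 3.46 FPKM in cKO neurospheres (log2 fold change -3.97 ± 0.226 SE, adjusted p = 0.00105). *Pcp4*, a calmodulin-binding peptide found in neurons, on chromosome 16 from 96467606 to 96525793, fell from 22.9 and 14.9 to 0.338 and 0.418 FPKM (log2 fold change -3.82 ± 0.206 SE, adjusted p = 0.00105). *Agt*, the angiotensinogen made by astrocytes, fell from 63.6 and 38.6 to 2.49 and 3.22 FPKM (log2 fold change -3.72 ± 0.237 SE, adjusted p = 0.00125). In each of these genes both controls were far above both cKO libraries.

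**Figure D2:**
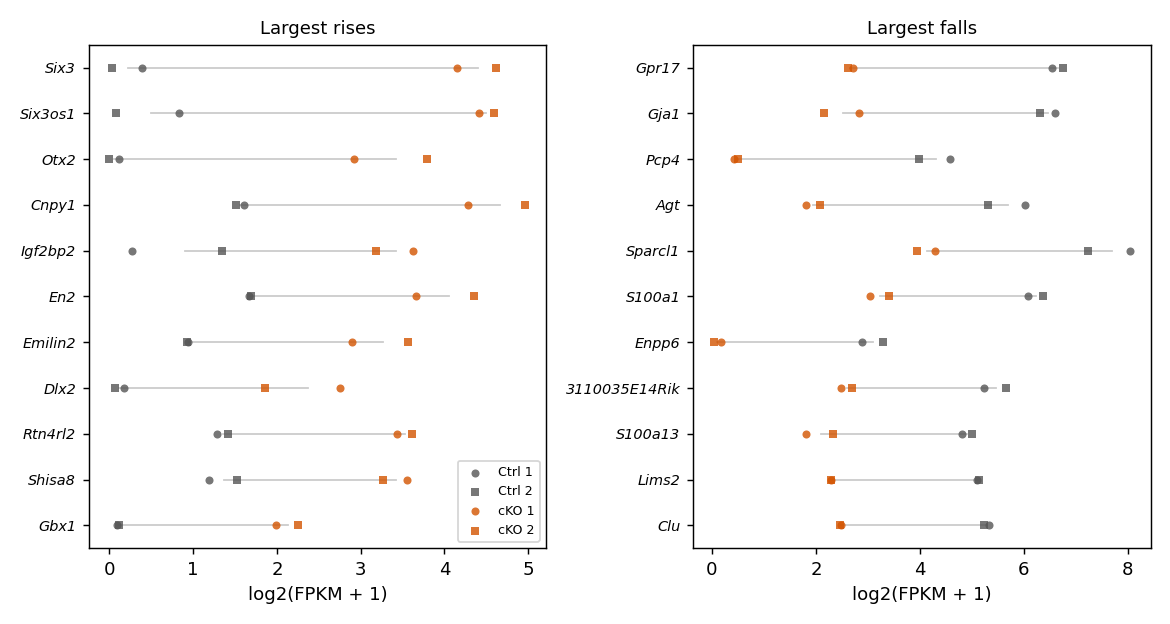
The level of 11 of the 12 single genes with the largest rises (left) and 11 of the 12 with the largest falls (right) among those with an adjusted p under 0.05 is shown as log2(FPKM + 1) in control 1 (grey circles), control 2 (grey squares), cKO 1 (orange circles) and cKO 2 (orange squares), with a line between log2(FPKM + 1) of the group means. The genes were picked for these differences, and within each gene both cKO libraries lie on one side of both controls.

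By FPKM gained or lost, abundant genes of the cytoskeleton and of astrocytes led. *Vim*, the intermediate filament vimentin of radial glia, rose from 1289.6 and 1219.8 to 2418 and 3354 FPKM (log2 fold change 1.18 ± 0.23 SE, adjusted p = 0.0188), and was no longer called without control library 2, at 1.14. *Tuba1b* and *Tubb5*, tubulins of dividing cells, rose by 1.29 and 0.92 on the log2 scale. *Ppia*, *Rps2* and *Rpl12* were in the same group by size at 0.47, 0.48 and 0.52, with adjusted p of 0.104, 0.0888 and 0.0558, and each call was lost without control 1, at 0.37, 0.53 and 0.56, and without control 2. The entry of *Apoe*, the lipid carrier of astrocytes, lost most. It was at 6317 and 3954 FPKM in controls and at 882 and 1305 FPKM in cKO neurospheres (log2 fold change -2.22 ± 0.325 SE, adjusted p = 0.00781), and this entry also names *Tomm40*, the next gene on chromosome 7. *Cst3*, the protease inhibitor cystatin C, fell from 1354 and 923 to 457 and 538 FPKM (log2 fold change -1.17). Of the metallothioneins, small proteins that bind zinc and copper and lie together on chromosome 8, *Mt2* and *Mt3* fell by 0.95 and 0.93 on the log2 scale, and *Mt1* was at 1843 and 2048 FPKM in controls and 1368 and 1164 FPKM in cKO neurospheres with an adjusted p of 0.0648 and lost its call without control 1 or control 2, at -0.70 and -0.55.

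**Figure D3:**
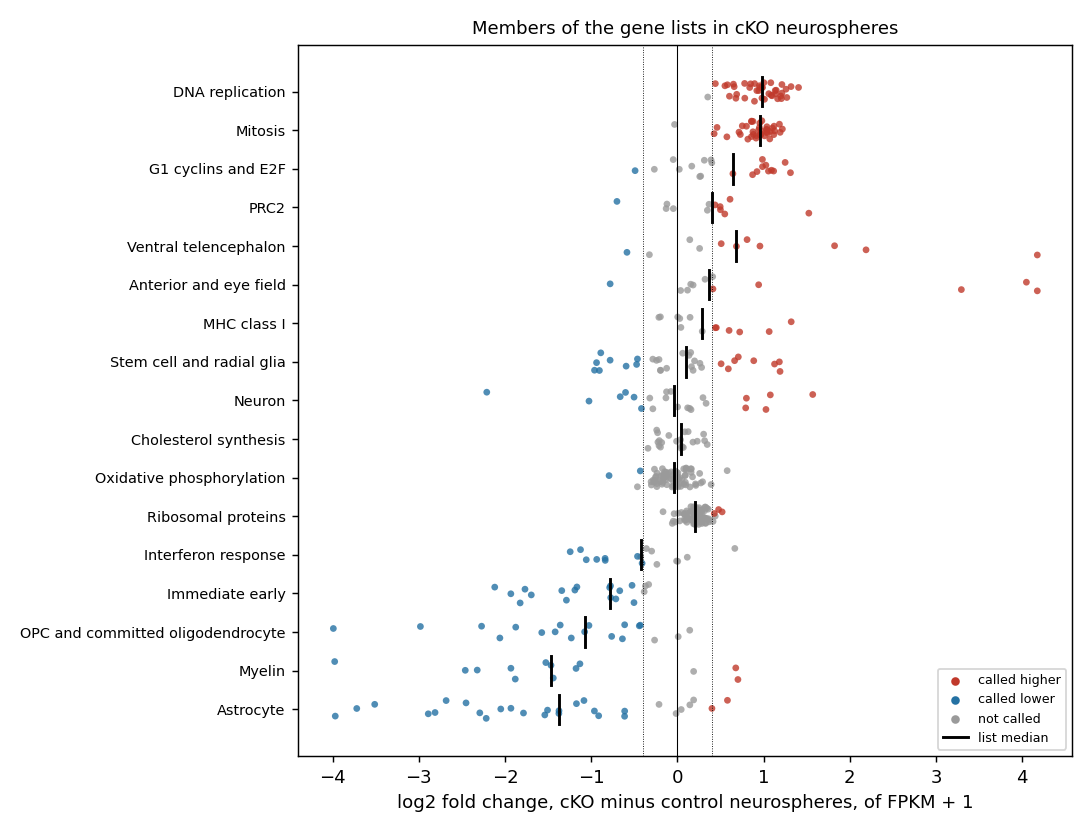
Each point is a tested member of a gene list (rows), placed by its log2 fold change, cKO minus control neurospheres, of FPKM + 1 (horizontal axis), with members called higher in red, lower in blue and not called in grey, the list median as a black bar and dotted lines at the fold change threshold of 0.4. The DNA replication and mitosis members lie almost wholly to the right, with medians of 0.98 and 0.96, and most members of the immediate early, oligodendrocyte, myelin and astrocyte lists to the left.

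Genes of the cell cycle rose together. Of 40 genes of DNA replication, 39 were higher in cKO neurospheres and none lower, 38 of them with an adjusted p under 0.05, against a background of 11.4% of all genes higher. Their median log2 fold change was 0.98, with a range of 0.35 to 1.41. Their summed level was 869 and 873 FPKM in controls and 1726 and 1826 FPKM in cKO neurospheres, so that both cKO libraries held about the same and clearly more than either control. *Cdt1*, which licenses replication origins, was at 9.86 and 12.1 FPKM in controls and 30.5 and 30.8 FPKM in cKO neurospheres (log2 fold change 1.41 ± 0.112 SE, adjusted p = 0.00176). *Rrm2*, the subunit of ribonucleotide reductase that limits DNA precursors, rose from 50.7 and 52.3 to 119 and 141 FPKM (log2 fold change 1.32). *Mcm3* of the replicative helicase and *Uhrf1*, which maintains DNA methylation at replication forks, rose by 1.27 and 1.26 on the log2 scale.

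Mitotic genes showed the same. Of 40, 39 were higher, none lower and 39 past the adjusted threshold, with a median of 0.96 and a summed level of 863 and 849.9 FPKM in controls and 1662 and 1769 FPKM in cKO neurospheres. *Ube2c*, a ubiquitin-conjugating enzyme of the anaphase-promoting complex, rose from 75.8 and 76.2 to 167 and 189 FPKM (log2 fold change 1.22 ± 0.0966 SE, adjusted p = 0.00176). *Cdk1*, the kinase that drives entry into mitosis, rose from 20.0 and 20.8 to 43.6 and 52 FPKM (log2 fold change 1.18 ± 0.106 SE, adjusted p = 0.00208). *Top2a*, *Mki67* and the transcription factor *Foxm1* had log2 fold changes of 1.19, 1.04 and 0.95. Without cKO library 1 the medians of the replication and mitosis lists were 1.0 and 0.99, and without control library 1 they were 0.98 and 0.96.

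Regulators of G1, which act before these, were mostly higher or not called. Of 21 cyclins, kinases and E2F genes of G1, 11 were higher and 1 lower. *Ccnd1*, the cyclin that responds to mitogens, whose entry also names *Mir3962*, rose from 298 and 324 to 628 and 701 FPKM (log2 fold change 1.09 ± 0.126 SE, adjusted p = 0.00391). *Mycn*, *Ccne2* and *E2f1* rose by 1.31, 1.25 and 1.12 on the log2 scale, while *Myc* was the lower gene at -0.49 (-0.37 without cKO library 1, under the fold change threshold). The inhibitors of cyclin-dependent kinases went both ways. *Cdkn1c*, an imprinted gene whose product p57 halts progenitors, fell from 23.9 and 23.5 to 9.29 and 11.7 FPKM (log2 fold change -1.11 ± 0.12 SE, adjusted p = 0.00326). *Cdkn2a*, a classical Polycomb target that encodes p16 and p19ARF, rose from 17.8 and 21.8 to 32.2 and 57.2 FPKM (log2 fold change 1.09 ± 0.263 SE, adjusted p = 0.0357), while *Cdkn2b*, 11646 bases away on chromosome 4, was at 9.84 and 8.87 and 4.78 and 6.86 FPKM (log2 fold change -0.62 ± 0.165 SE, adjusted p = 0.0468). The call of *Cdkn2b* was lost without control library 1, at a log2 fold change of -0.55, and without cKO library 1, at -0.40.

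Astrocyte genes fell. Of 30 listed, 29 could be tested, 22 were lower and 2 higher, against 13.2% of all genes lower, and all 22 lower ones passed the adjusted threshold. The median was -1.38, with a range of -3.97 to 0.58, and the summed level was 10292 and 7095 FPKM in controls and 2291 and 2749 FPKM in cKO neurospheres, of which the *Apoe* entry was the largest part in controls. *Sparcl1*, a matrix protein that promotes synapses, fell from 262 and 149.8 to 18.7 and 14.5 FPKM (log2 fold change -3.51 ± 0.267 SE, adjusted p = 0.00161). The chaperone *Clu* was at 39.3 and 36.8 FPKM in controls and 4.58 and 4.55 FPKM in cKO neurospheres (log2 fold change -2.81). *Gjb6*, connexin 30, and *S100b*, a calcium-binding protein, fell by 2.68 and 2.45 on the log2 scale. *Fgfr3*, a receptor of astrocyte progenitors, fell from 76.4 and 67.4 to 28 and 21.6 FPKM (log2 fold change -1.51 ± 0.139 SE, adjusted p = 0.00226). Of the factors that start gliogenesis, *Sox9* fell by 0.60, *Nfia* and *Nfix* were not called, and *Nfib* was called at 0.40, at the threshold, and lost without control library 2 (0.31) or cKO library 1 (0.36). The count of lower genes was 22 without control library 1 and 22 without cKO library 1.

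Genes of oligodendrocyte precursors (OPCs) and committed oligodendrocytes fell as well. Of 20, 19 could be tested, 16 were lower and none higher, with a median of -1.08. *Tnr*, tenascin R of the matrix around OPCs, fell from 49.3 and 58.5 to 11.4 and 9.36 FPKM (log2 fold change -2.27 ± 0.129 SE, adjusted p = 0.00105). *Bcas1*, a marker of newly formed oligodendrocytes, fell from 41.9 and 45.7 to 8.81 and 10.8 FPKM (log2 fold change -2.06 ± 0.115 SE, adjusted p = 0.00105). *Enpp6*, another such marker, was at 6.36 and 8.76 FPKM in controls and 0.121 and 0.0264 FPKM in cKO neurospheres (log2 fold change -2.98). *Pdgfra*, the receptor that drives OPCs, *Nkx2-2*, *Sox10* and *Sox8* fell by 1.88, 1.42, 1.03 and 1.08 on the log2 scale. *Olig1* and *Olig2*, the factors that set up the lineage, were at log2 fold changes of 0.14 and 0.0090 (adjusted p = 0.602 and 0.966), and *Olig1* alone held 1774 and 1706 FPKM in controls and 1956 and 1885 FPKM in cKO neurospheres, and the summed level of the list went from 3541 and 3462 to 3125 and 3018 FPKM.

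Of 20 myelin genes, 13 could be tested, 10 were lower and 2 higher (*Tspan2* and *Nkx6-2*, the latter no longer called without control 1, at 0.54, or cKO 2, at 0.42), with a median of -1.47. The list summed to 269 and 316 FPKM in controls and 82 and 89.6 FPKM in cKO neurospheres. *Mbp*, myelin basic protein, fell from 10.4 and 18.4 to 1.77 and 1.64 FPKM (log2 fold change -2.46 ± 0.246 SE, adjusted p = 0.00259), with control 2 above control 1. *Fa2h*, which makes myelin lipids, and *Myrf*, the factor that switches on myelin genes, fell by 2.32 and 1.93 on the log2 scale. *Mog*, *Mag*, *Mobp* and *Opalin*, which mark mature oligodendrocytes, were under the filter in both groups.

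Progenitor genes went in both directions. Of 30 genes of stem cells and radial glia, all tested, 8 were higher and 8 lower, with a median of 0.098. *Nes*, the intermediate filament nestin, rose from 94.2 and 89.4 to 148 and 195 FPKM (log2 fold change 0.89 ± 0.144 SE, adjusted p = 0.0105). *Prom1*, a membrane protein of stem cells, rose from 2.14 and 2.64 to 6.22 and 6.53 FPKM (log2 fold change 1.13 ± 0.129 SE, adjusted p = 0.00383), and *Sox1* and *Egfr*, the receptor for EGF in the medium, rose by 0.71 and 0.59 on the log2 scale. *Emx1*, whose regulatory sequence drives Cre in these mice, was at 0.175 and 0 FPKM in controls and 1.16 and 1.84 FPKM in cKO neurospheres (log2 fold change 1.19 ± 0.223 SE, adjusted p = 0.0166). *Emx2*, its relative, moved the other way with a log2 fold change of -0.47, which was -0.35 and under the fold change threshold without cKO library 1. *Sox2* and *Pax6* were not called, at log2 fold changes of -0.20 and 0.20 (adjusted p = 0.398 and 0.219).

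Of the lower genes of this list 6 are known targets of Notch or BMP signaling. *Hes5*, which Notch induces to keep progenitors undifferentiated, fell from 21.1 and 21 to 10.4 and 10.7 FPKM (log2 fold change -0.94 ± 0.0819 SE, adjusted p = 0.00205), and *Hes1* fell by 0.89 on the log2 scale. *Id3*, an inhibitor of differentiation induced by BMP, fell from 121 and 100.2 to 47.4 and 66.4 FPKM (log2 fold change -0.96 ± 0.179 SE, adjusted p = 0.0164), and *Id1*, *Id2* and *Id4* were lower by 0.46, 0.78 and 0.91. Of 19 tested Notch pathway genes 4 were lower and 1 higher. *Hey2*, a further target, fell by 1.15 and *Dll3*, a ligand-like protein that restrains Notch, by 0.55. The higher gene was the ligand *Jag2*, whose entry also names *Mir6941* and which rose from 0.457 and 0.347 to 3.21 and 4.2 FPKM (log2 fold change 1.74 ± 0.174 SE, adjusted p = 0.00259). The receptors *Notch1*, *Notch2* and *Notch3* were not called. Of 21 tested genes of BMP and TGF-beta signaling 4 were higher, among them the ligand *Bmp7* (0.57), and 6 lower, among them the ligand *Tgfb2* (-1.12).

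Neuronal genes were mixed. Of 30, 22 passed the filter, 5 were higher and 6 lower, with a median of -0.037, against 11.4% and 13.2% of all genes tested. The count of lower genes was 3 without control library 1 and 4 without cKO library 2. The intermediate filament genes *Nefm*, *Ina* and *Nefl* rose by 1.57, 1.08 and 1.03 on the log2 scale. *Dcx*, a microtubule protein of migrating neurons, fell from 4.85 and 6.04 to 0.465 and 0.311 FPKM (log2 fold change -2.21 ± 0.164 SE, adjusted p = 0.00158), and *Snap25* of the synaptic release machinery fell by 1.03. Of 20 genes of the path from progenitor to neuron, 13 could be tested, 3 were higher and 3 lower, with a median of -0.018. Among the lower ones were *Btg2* (-1.70) and *Dll3* (-0.55). *Eomes*, *Neurod6* and *Tbr1* were under the filter, *Neurog2* was at a log2 fold change of 0.18 (adjusted p = 0.467), and *Insm1* and *Neurod1* were called higher at 1.0 and 0.94, the first not without control 2, at 0.95.

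Immediate early genes, which growth factors and activity switch on within minutes, fell as a group. All 19 were tested and had a negative log2 fold change, and 16 were called lower, 14 past the adjusted threshold, with a median of -0.79. Their summed level was 3327 and 3252 FPKM in controls and 1422 and 1546 FPKM in cKO neurospheres. *Fos*, the prototype of the group, was at 740.2 and 661 FPKM in controls and 186 and 208 FPKM in cKO neurospheres (log2 fold change -1.82 ± 0.124 SE, adjusted p = 0.00135). *Junb*, its partner, fell from 291 and 235 to 66.9 and 86.7 FPKM (log2 fold change -1.77 ± 0.164 SE, adjusted p = 0.00227). *Cyr61*, a matrix protein and YAP target, fell from 121 and 118 to 26.4 and 27.1 FPKM (log2 fold change -2.12 ± 0.0769 SE, adjusted p = 0.000414), and *Arc* fell by 1.93. Of 25 tested genes of FGF, EGF and ERK signaling, a list that shares *Fos* and *Egr1* with the immediate early genes, 8 were lower, *Fos* and *Egr1* among them, and 4 higher (7 higher without cKO library 1). *Dusp6*, a phosphatase that ERK induces, fell by 0.80 and *Dusp4*, another, rose by 0.61. *Socs3*, an inhibitor of cytokine signaling that STAT3 induces, fell from 64.1 and 56.8 to 10.5 and 7.43 FPKM (log2 fold change -2.64 ± 0.159 SE, adjusted p = 0.00112).

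Antigen presentation and interferon genes were called in opposite directions. Of 13 tested genes of MHC class I and its peptide loading, 6 were higher, 3 of them past the adjusted threshold, and none lower. *H2-K1* rose from 26.6 and 25.9 to 42.8 and 45.2 FPKM (log2 fold change 0.72 ± 0.0793 SE, adjusted p = 0.00343), and the entry of *H2-D1* and *H2-L* from 19.3 and 20.0 to 39.5 and 45.2 FPKM (log2 fold change 1.06). These genes share long stretches of sequence, so reads may be split among them. Of 16 tested interferon response genes none was higher and 8 were lower, 6 past the adjusted threshold. *Ifit2*, an RNA-binding protein that interferon induces, fell from 8.65 and 7.66 to 2.88 and 2.84 FPKM (log2 fold change -1.24 ± 0.114 SE, adjusted p = 0.00223), and *Ifit3* and *Ifit3b*, its neighbours on chromosome 19, fell by 1.06 and 1.12. The count of lower interferon genes was 4 of 14 tested without control library 2 and 6 without control library 1 or cKO library 2.

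Polycomb genes were counted by complex. Over all genes tested 11.4% were higher and 13.2% lower. Of the 10 subunits of PRC1.1, 1 was higher and 1 lower, near those shares. *Bcor*, the scaffold of the complex, whose entry also names *2900008C10Rik*, rose from 5.73 and 6.47 to 8.77 and 12.5 FPKM (log2 fold change 0.70 ± 0.171 SE, adjusted p = 0.0371). *Ring1*, a ubiquitin ligase, whose entry also names *Mir219a-1*, fell from 16.1 and 16 to 10.5 and 10.5 FPKM (log2 fold change -0.56 ± 0.083 SE, adjusted p = 0.00796), while *Rnf2*, the other ligase, was at 0.17 (adjusted p = 0.237). *Pcgf1*, *Rybp*, *Yaf2*, *Bcorl1*, *Skp1a* and *Usp7* were not called, with log2 fold changes from -0.27 to 0.35. That of *Pcgf1* was -0.44 and past the thresholds without cKO library 2, that of *Bcorl1* was 0.42 and past them without cKO library 1, and that of *Rybp* turned from -0.092 to 0.056 without cKO library 2. Of 12 canonical PRC1 genes none was higher and 1 lower, with 2 lower without control 1 or cKO 2 and 1 higher without cKO 1.

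Of 12 PRC2 genes, 6 were higher and 1 lower, against 11.4% and 13.2% of all genes tested. *Ezh2*, the methyltransferase of dividing cells, rose from 31 and 28.7 to 45.2 and 47 FPKM (log2 fold change 0.61 ± 0.0832 SE, adjusted p = 0.00642), and *Ezh1*, its relative in resting cells, fell from 6.73 and 7.0 to 4.24 and 3.46 FPKM (log2 fold change -0.70 ± 0.125 SE, adjusted p = 0.014). *Suz12* of the core rose by 0.55 and *Eed* was at 0.37, under the fold change threshold. The accessory gene *Epop*, listed under its older symbol *E130012A19Rik*, rose from 6.01 and 6.43 to 17.1 and 22.8 FPKM (log2 fold change 1.52 ± 0.146 SE, adjusted p = 0.00237).

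**Figure D4:**
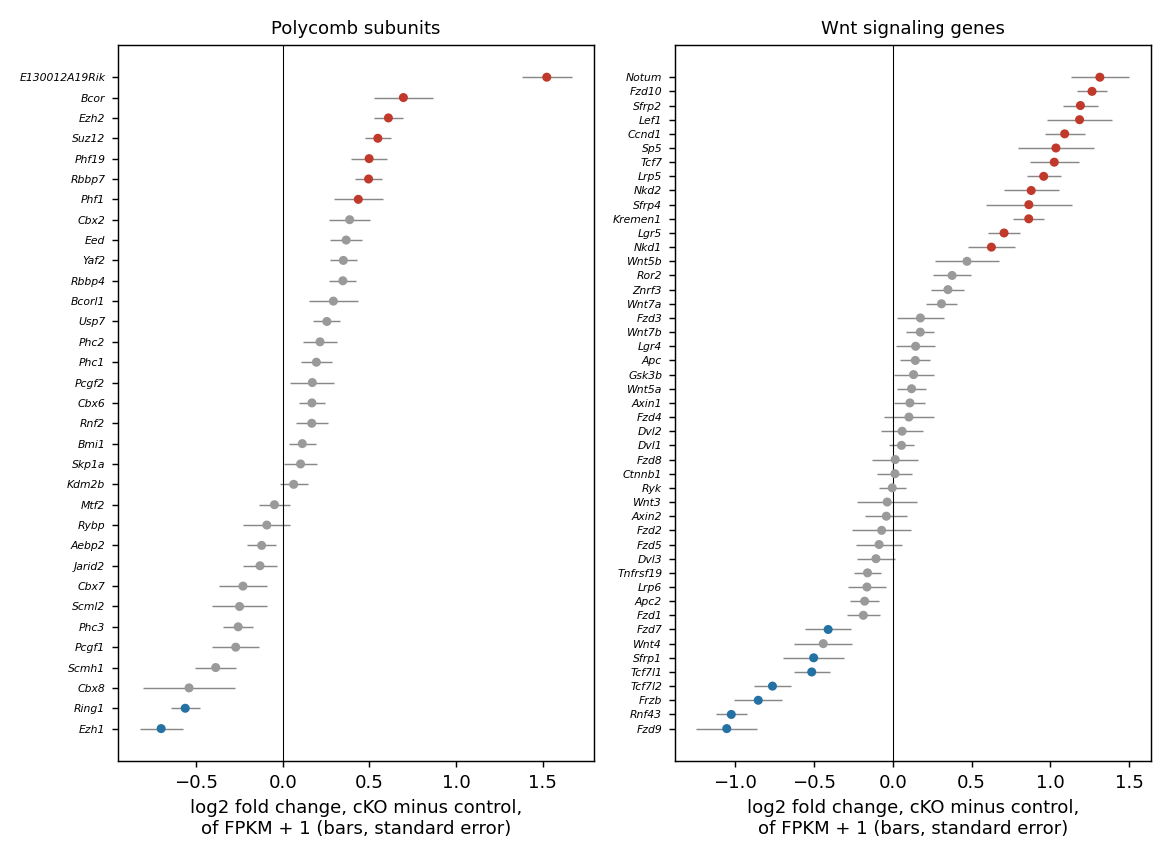
Log2 fold changes, cKO minus control neurospheres, of FPKM + 1 are drawn with standard errors from limma for tested Polycomb genes reported here (left) and Wnt signaling genes (right), ordered by value, with called higher genes in red, called lower genes in blue and the others in grey. *E130012A19Rik* (*Epop*) stands at 1.52 on the left, and on the right called genes lie at both ends, from *Fzd9* at -1.05 to *Notum* at 1.31.

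In Wnt signaling, secreted ligands act through Frizzled receptors and beta-catenin on TCF and LEF factors. Called genes lay among its receptors, modulators and effectors. Over all genes tested 11.4% were higher and 13.2% lower, and the lower counts of receptors and of transducers were near that share. *Notum*, *Lef1* and *Sp5* averaged 0.43, 0.393 and 0.375 FPKM in controls and passed the filter only through the cKO libraries. Of 19 ligand genes 6 passed the filter and none was called (1 with an unadjusted p under 0.05 from limma), with log2 fold changes from -0.44 (*Wnt4*) to 0.47 (*Wnt5b*). Of 15 tested receptor genes, 3 were higher and 2 lower. Of the lower genes, *Fzd7* (-0.41) had an adjusted p of 0.0973 and was not called without control 1 (-0.33), control 2 (-0.49) or cKO 2 (-0.33). *Fzd10* rose from 8.24 and 7.53 to 19.6 and 21.1 FPKM (log2 fold change 1.26 ± 0.0944 SE, adjusted p = 0.00158), and *Fzd9* fell from 24.4 and 26.9 to 14.7 and 9.47 FPKM (log2 fold change -1.05 ± 0.192 SE, adjusted p = 0.0153). Of 17 secreted modulators and their receptors, 6 could be tested and all were called, 4 higher and 2 lower. *Sfrp2*, which binds Wnt proteins, on chromosome 3 from 83766321 to 83774316, was at 11.9 and 14 FPKM in controls and 28.9 and 32.9 FPKM in cKO neurospheres (log2 fold change 1.19 ± 0.113 SE, adjusted p = 0.00236). *Notum*, an enzyme that inactivates Wnt proteins, rose from 0.587 and 0.272 to 2.38 and 2.69 FPKM (log2 fold change 1.31), while *Frzb*, an inhibitor of the same family as *Sfrp2*, fell by 0.85. The calls of *Sfrp1* (-0.50) and *Sfrp4* (0.86) had adjusted p of 0.12 and 0.0727 and were lost without control library 1, at -0.52 and 0.61, and without cKO library 2, at -0.34 and 0.53. That of *Sfrp1* was also lost without control library 2, at -0.49.

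Of 20 tested transducers and targets 6 were higher and 3 lower, and the 4 TCF and LEF genes split in pairs. *Lef1*, on chromosome 3 from 131110471 to 131224356, was at 0.541 and 0.244 FPKM in controls and 1.81 and 2.54 FPKM in cKO neurospheres (log2 fold change 1.19 ± 0.207 SE, adjusted p = 0.0134), and *Tcf7* rose from 0.919 and 0.916 to 2.63 and 3.2 FPKM (log2 fold change 1.03 ± 0.154 SE, adjusted p = 0.00855). *Tcf7l2* fell from 6.84 and 6.83 to 3.89 and 3.36 FPKM (log2 fold change -0.76 ± 0.115 SE, adjusted p = 0.00862), and *Tcf7l1*, mostly a repressor, fell by 0.51. Of the genes that Wnt signaling induces as feedback, *Sp5*, *Nkd1* and *Nkd2* were higher at 1.04, 0.63 and 0.88, *Rnf43*, which removes Frizzled receptors, was lower at -1.02, and *Axin2* was at 10.7 and 9.39 FPKM in controls and 8.67 and 10.9 FPKM in cKO neurospheres (log2 fold change -0.041 ± 0.133 SE, adjusted p = 0.85). *Ctnnb1*, beta-catenin itself, was at a log2 fold change of 0.014. In hedgehog signaling, the co-receptors *Cdon* and *Gas1* rose by 2.01 and 0.63, from 12.2 and 13.6 to 50.3 and 59.9 FPKM in the first, and the 8 other tested members were not called.

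Other families were mixed. Of 34 tested homeobox genes outside the *Hox* clusters 13 were higher and 7 lower. *Six3*, *Otx2* and *Dlx2* were among the higher and passed the filter only through the cKO libraries. The largest fall was that of *Dbx2*, a factor of the spinal cord and brainstem, from 68.4 and 59.8 to 15.9 and 13.8 FPKM (log2 fold change -2.04 ± 0.109 SE, adjusted p = 0.00105). Of 18 tested collagen genes 4 were higher and 8 lower. *Col4a1* and *Col4a2*, neighbours that form the network of basement membranes, rose by 0.86 and 0.61, and the fibril collagens *Col11a1* and *Col27a1* fell by 1.3 and 1.56. Of 10 tested S100 genes, a family listed after the values were seen, 6 were lower and 1 higher (2 higher without cKO 2). *S100a1* and *S100a13*, which lie 43 bases apart on chromosome 3, fell by 3.0 and 2.84, and *S100a10* rose by 0.93. Among imprinted genes *Mest* and *Ndn* rose by 1.37 and 1.01, and of 16 tested 3 were higher and 4 lower (2 and 2 without control 2, 5 and 4 without cKO 2). Glycolysis and hypoxia genes were higher in 7 of 22, among them *Ldha* at 0.91 and *Hk2* at 1.01, and lower in 1, with 3 of the higher ones past the adjusted threshold. The count of higher genes was 16 without cKO library 1, 3 without control library 1 and 4 without control library 2 or cKO library 2. Of 16 tested genes of hippocampal and cortical identity 2 were higher and 5 lower, of 14 *Sox* genes 3 and 3, of 21 *Gata*, *Tbx* and *Fox* genes 2 and 2, and of 18 stress response genes 3 and 3 (5 and 3 without cKO 1). Of 6 tested genes of neural crest and Schwann cells 1 was higher and 3 were lower, of 3 choroid plexus genes 1 and 1 (2 and 1 without cKO 2), and of 4 germline genes 0 and 1 (0 and 0 without control 1 or control 2, and 1 and 0 without cKO 1).

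None of 22 genes of cholesterol synthesis was called, with log2 fold changes of -0.34 to 0.35 and 5 had an unadjusted p under 0.05 from limma. Of 80 tested genes of oxidative phosphorylation none was higher and 2 were lower, with a median of -0.037. Without cKO library 2, 13 were lower and none higher, without cKO library 1, 5 were higher and 2 lower, and without control library 2, 1 was lower. Of 77 ribosomal protein genes 3 were higher (*Rps2*, *Rpl12* and *Rpsa*, each lost without either control), none of them past the adjusted threshold, and none was lower, with a median of 0.21. Without cKO library 1, 35 of the 77 were higher, with a median of 0.40, and without control library 1 or control library 2 none was.

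The effect of genotype was then compared between neurospheres and whole hippocampi, which are separate tables with separate controls, by the interaction of genotype and table over the 11074 genes tested in both. In neurospheres the effect was more positive for 1100 genes (9.93%) and more negative for 1382 (12.5%), at an adjusted p under 0.05 and a difference over 0.4. By itself, the comparison of 3 control with 3 cKO hippocampi called 3.89% of its genes higher and 2.25% lower. Of the 37 replication and 37 mitosis genes none was called in hippocampi, with 9 and 0 of them at an unadjusted p under 0.05 from limma, where their medians were 0.095 and 0.045, and the interaction was called more positive in 33 of 37 and 34 of 37. Astrocyte genes were called lower in 4 of 27 in hippocampi, with a median of -0.081, and the interaction was more negative in 19 of 27. For OPC and oligodendrocyte genes it was more negative in 12 of 16, for myelin genes in 6 of 7 and for immediate early genes in 10 of 15. In hippocampi, 3 of these 15 immediate early genes were called higher and 1 lower. Of the 16 OPC and oligodendrocyte genes, 2 were called higher there and none lower.

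Single genes followed the lists or departed from them. *Gja1* had a log2 fold change of -0.24 in hippocampi against -3.97 in neurospheres (difference -3.73, adjusted p = 4.63e-06). *Six3os1* and *Otx2* were at 0.55 and 0.82 in hippocampi, with differences of 3.49 and 2.47, and *Six3* itself was under the filter there. *Cdkn1c* differed in sign, at 0.92 (adjusted p = 0.00726) in hippocampi and -1.11 in neurospheres, with a difference of -2.03 (adjusted p = 0.00012). So did *Sox9*, at 0.68 and -0.60 (adjusted p of the difference = 1.54e-05). For *Lef1* the log2 fold change was 1.19 in hippocampi and 1.19 in neurospheres, with a difference of -0.0048 (standard error 0.177, adjusted p = 0.988). *Sfrp2* was at 1.06 and 1.19, with a difference of 0.13 (standard error 0.17, adjusted p = 0.612). *Epop* was at 1.47 and 1.52 (difference 0.052, standard error 0.187).

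**Figure D5:**
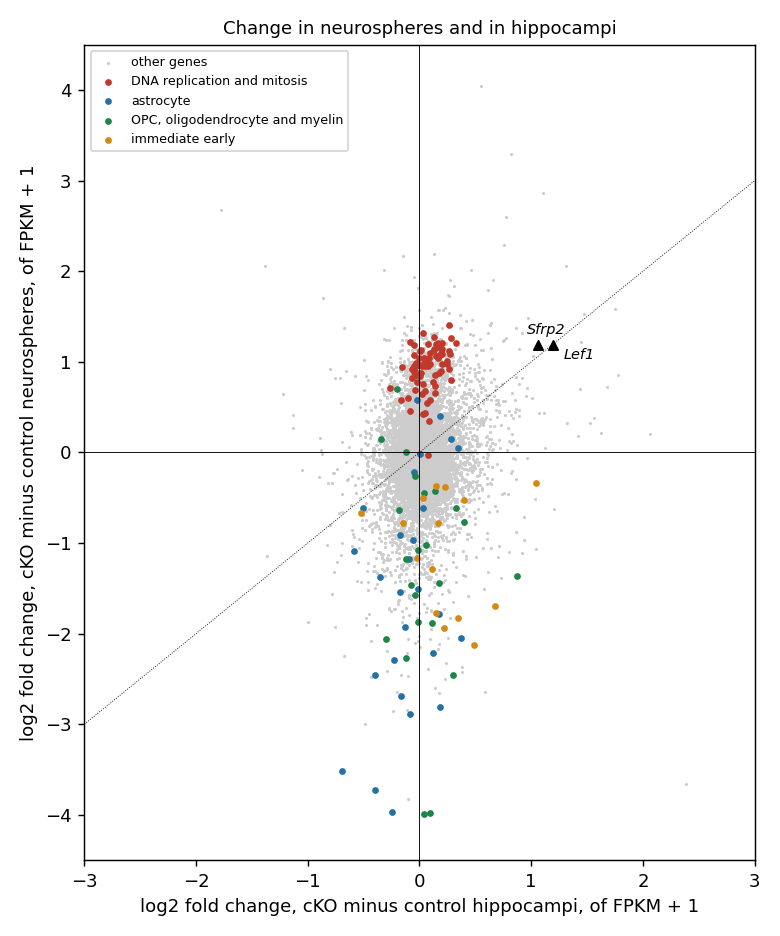
The log2 fold change, cKO minus control, of FPKM + 1 in neurospheres (vertical axis) is plotted against that in hippocampi (horizontal axis) for the 11074 genes tested in both, with DNA replication and mitosis genes in red, astrocyte genes in blue, OPC, oligodendrocyte and myelin genes in green, immediate early genes in orange, *Lef1* and *Sfrp2* as triangles and a dotted line where both changes are equal. The colored lists spread along the vertical axis, with list medians in hippocampi from -0.081 (astrocyte) to 0.16 (immediate early), though some single members were called there. *Lef1* and *Sfrp2* lie near the dotted line.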

How the data were processed

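The authors made poly(A) libraries of neurosphere and hippocampal RNA with a NEBNext Ultra II kit, sequenced paired ends, trimmed them with cutadapt, aligned them to mm10 (GRCm38) with STAR and deposited FPKM estimated with Cufflinks 2.2.1. The processing notes also list DESeq2, whose counts are not used here. The methods give a nominal depth, but FPKM hold no counts, so the depth and counting error of each library cannot be computed, and the number of libraries limits the precision.

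Of 26293 neurosphere entries, 2059 that name no gene and *Mir6236* were left out, 836 repeated names gave way to the entry with the highest mean, and 777 that name several genes were kept. Those averaging 0.5 FPKM or more were tested on log2(FPKM + 1) with limma 3.58.1 in R 4.3.3 (eBayes with a trend), 2 cKO against 2 control libraries. The interaction used the neurosphere and hippocampal tables together. Libraries correlated at 0.983 to 0.993 within groups and 0.954 to 0.962 between groups (Pearson's r across genes).

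Members and 48 lists were chosen from general knowledge with earlier results of these data known, and 6 lists and the crossed pairing after the values were seen. Genes named in the text are, in each direction, the 12 largest changes past an adjusted p of 0.05, the 8 called genes with the largest difference of FPKM, up to 4 called members of each list, the 6 largest interactions, PRC1.1 subunits, *Lef1*, *Sfrp2* and 11 markers; other list members were named after their values were seen, and some genes the rule picks are not reported here. Alternatives were a pseudocount of 0.1, no filter, a filter of at least 1 FPKM, rescaling to one total, median-ratio scaling, no trend, a replicate block, other thresholds, other treatment of entries, for the interaction spread weighted by table, and each library left out. On simulated data 200 of 12226 genes were changed by 1 on the scale of log2(FPKM + 1). Of these limma recovered 198, 136 with adjusted p values, and it called 1.66% of the unchanged genes. The changed genes were drawn only from those above a low level, and the spread was drawn for each gene alone. Recovery of genes of low level and effects shared across a library were thus not covered. Positions are from GENCODE M21 and promoters from RefSeq (GRCm38.p6), where 9826 of 12226 tested entries matched by symbol or synonym.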

Additional observations from a re-analysis of the deposited data

Results flagged for a closer look

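The effect of genotype differed between neurospheres and hippocampi, by the interaction in limma, for 11 genes among those with the largest differences in either direction. It was more positive in neurospheres by 3.49 for *Six3os1*, 2.47 for *Otx2*, 2.33 for *Lix1*, 2.32 for *Rtn4rl2*, 2.06 for *Dlx2* and 1.99 for *Scrn1*, on the log2 scale. The difference was -4.04 for *Gpr17*, -3.73 for *Gja1*, -3.71 for *Pcp4*, -3.32 for *Agt* and -3.23 for *Socs3*. The adjusted p values over 11074 genes lay between 1.21e-06 (*Gpr17*) and 0.00121 (*Otx2*). *Lix1* was at 0.138 and 0.288 FPKM in control and 2.82 and 5.24 FPKM in cKO neurospheres, with a log2 fold change of -0.32 in hippocampi, and *Scrn1* was at 1.56 and 2.0 and 9.64 and 9.64 FPKM, with -0.045 in hippocampi. *Socs3* moved in opposite directions, at -2.64 in neurospheres and 0.59 in hippocampi. Groups of 2 libraries are too small to look for single libraries far from the rest of their group.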

How the results depend on the processing

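With 2 libraries a group, an absent call does not show that a gene is level, and where a library is left out the lone library is assumed to vary like the other group. Counts of higher and lower genes were 2230 and 2438 without a fold change threshold and 240 and 365 with a log2 fold change over 1, and within 1.5 times the reported counts under the other alternatives. Leaving out a library gave 1214 to 1770 higher and 1359 to 1875 lower genes, and 894 to 1350 more positive and 1087 to 1455 more negative interactions. With libraries rescaled to one FPKM total, 1218 were higher and 1942 lower (38.5% of calls higher, against 46.2%), around a median of -0.061 over all genes. Deviations from the group means correlated at -0.125 between same-numbered libraries. With 2 libraries a group, so weak a value cannot tell whether the replicate numbers mark a shared batch. With the replicate block 1383 genes were higher and 1616 lower, with 981 and 1191 interactions, and with the crossed pairing 1445 and 1643.

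Medians of 28 lists were followed through the alternatives. Of the values obtained, 319 stayed within the spread between replicates, 61 moved by more and 12 changed sign. The medians that moved are given here for 6 of these lists only. With a pseudocount of 0.1 they were 1.02 (DNA replication), 0.99 (mitosis), -1.54 (astrocyte), -1.16 (OPC) and -1.0 (immediate early), rescaled 0.93 (DNA replication) and 0.91 (mitosis), without a filter -0.79 (myelin) and without shared entries -0.97 (immediate early). Leaving out a library gave 0.95 to 1.00 for DNA replication, 0.92 to 0.99 for mitosis, -1.52 to -1.33 for astrocyte, -1.20 to -1.05 for OPC, -1.54 to -1.39 for myelin and -1.10 to -0.73 for immediate early genes. Medians near 0 changed sign. That of the neurogenic path, -0.018, was 0.030 without a filter, 0.0048 without shared entries, and -0.083 to 0.042 with a library left out. That of neuronal genes was 0.031 without a filter and -0.072 to 0.033 with a library left out, that of collagens 0.0069 without a filter, that of Wnt receptors -0.020 rescaled, that of cholesterol synthesis -0.015 rescaled and -0.031 to 0.052 with a library left out, and that of oxidative phosphorylation -0.20 to 0.087 with a library left out. With a library left out *Rybp* ranged from -0.24 to 0.056 and *Sox2* from -0.40 to 0.0012. Their causes were not tested.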

Other observations

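Genes of glutathione transfer and gap junctions, families listed after the values were seen, held called genes mostly in the lower direction. Of 9 tested glutathione transferase genes, whose products detoxify electrophiles, 6 were lower in cKO neurospheres and none higher. The entry of *Gstm1* and *Gstm3* fell from 492 and 408 to 118 and 118 FPKM (log2 fold change -1.91 ± 0.122 SE, adjusted p = 0.00125 from limma), and these near-identical genes may share reads. Of 5 tested connexin genes, *Gja1* and *Gjb6*, both also in the astrocyte list, and *Gjd2* were lower and *Gjc1* was higher, rising from 3.18 and 2.01 to 9.2 and 12.6 FPKM (log2 fold change 1.73 ± 0.21 SE, adjusted p = 0.00458).

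Of 20 tested targets of p53, 4 were higher and 3 lower, with 2 in each direction past the adjusted threshold. The count of higher genes was 8 without cKO library 1 and 2 without control library 1 or control library 2. *Pmaip1* and *Eda2r* rose by 0.65 and 0.52 on the log2 scale, and *Btg2*, also an immediate early gene, fell by 1.7. *Cdkn1a*, the p53 target p21, was called at 0.58 with an adjusted p of 0.0992 and at 112 and 174 FPKM in the cKO libraries, and its call was lost without control 1 (0.49), control 2 (0.68) or cKO 2 (0.27).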
